A study of Mus musculus with 68 samples.

Results

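Cells of the mouse brain vasculature were sequenced in this series under the names brain vascular and brain endothelial, and 4 of its 68 RNA-seq libraries, 2 under each name, are compared here. The members were taken by their titles. The 2 brain endothelial libraries came from forebrain of adult male mice of the genotype Rosa-tdTomato; VE-Cadherin-CreERT2, in which a Cre recombinase driven by the endothelial cadherin promoter and activated by tamoxifen turns on a red fluorescent reporter. Those mice received 100 ul of tamoxifen at 20 mg/ml in corn oil on 3 days in a row, 10 days before the cells were enriched. Their tissue was digested with papain, collagenase and dispase, freed of myelin and sorted by FACS, and RNA was purified with Trizol, chloroform and a Qiagen column. The 2 brain vascular libraries are labelled healthy, carry the source name brain endothelial cells, and were sorted into Trizol and extracted with phenol and chloroform, while genotype, sex, age and dissociation were not in the labels. The sort and the RNA purification as described differ between the groups, and these and any difference in genotype, tamoxifen or dissociation cannot be told apart. Libraries of both groups were built with NuGEN kits, the Ovation RNA-seq V2 and the Ultralow. The 13 control libraries of brain in the injury models (epilepsy, stroke and 3 stages of traumatic brain injury, TBI) carry the same description of sorting and extraction as brain vascular and serve here as a further reference. The labels do not say whether libraries of a group came from separate animals, so the tests weigh differences against library-to-library spread, part of which may be technical.

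Small vessels of the brain are a tube of endothelial cells wrapped by mural cells, which are pericytes on capillaries and smooth muscle cells on arterioles and arteries. Mural cells are recruited by platelet-derived growth factor from endothelium, share a basement membrane with it, and set vessel tone through contraction. They adhere closely to endothelial tubes, so sorts of brain vessels often carry them along, whereas a reporter driven by a VE-cadherin promoter marks endothelium.

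The vascular libraries held 24.3 and 25.1 M reads and the endothelial libraries 18.8 and 21.4 M, recovered from the deposited counts per 1000000 reads (CPM). Mitochondrial rRNA took 40.7 and 22.3% of reads in vascular and 20.0 and 17.1% in endothelial libraries. Levels below are CPM in library 1 and library 2 of a group, and log2 differences are on log2(CPM + 1) with their SE. Testing 18141 genes with limma and Benjamini-Hochberg adjustment called 1409 of them (7.77%) at an adjusted p under 0.05, 748 higher (4.12%) and 661 lower (3.64%) in vascular libraries, and with mitochondrial rRNA left out the calls were 1668 higher and 552 lower. Without endothelial library 2 they were 1658 and 1777, and without vascular library 1 they were 304 and 80. Leaving out vascular library 2 gave 345 and 581, and leaving out endothelial library 1 gave 340 and 258. Libraries of a group were not alike either, since 24.19% of genes differed over 2-fold between the endothelial libraries and 6.65% between the vascular ones.

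Pericyte genes stood far higher in brain vascular than in brain endothelial libraries. Of 39 tested members of the pericyte list, 33 were higher, 0 were lower and 6 did not pass the test, against 4.12% of all genes called higher. The median log2 difference over the 39 was 3.28, and that over all genes was 0. In brain endothelial cells 15 members stood below 5% of their vascular mean, 13 at 5 to 15% and 5 at 15 to 30%. In bulk RNA, fewer mural cells and less of these transcripts per cell cannot be told apart.

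Among receptors and channels of pericytes, Pdgfrb, the receptor through which endothelial platelet-derived growth factor recruits pericytes, stood at 178 and 197 CPM in vascular and 6.12 and 6.83 in endothelial libraries (log2 difference 4.66 ± 0.41, limma adjusted p = 3.57e-05). Kcnj8, the pore subunit of the ATP-sensitive potassium channel of mural cells, stood at 102 and 63.1 against 0.959 and 1.54 CPM (5.18 ± 0.42, adjusted p = 1.82e-05). Its regulatory partner Abcc9 stood at 184 and 156 against 25.9 and 11.2 CPM. The endothelial level was thus 1.52% of the vascular level for the pore and 10.9% for the regulatory subunit. Ednra, the endothelin A receptor, reached 34.7 and 37.1 CPM in vascular and 0.0533 and 0.608 in endothelial libraries (4.83 ± 0.54, adjusted p = 0.000151). P2ry14, a receptor for UDP-glucose, stood at 56.1 and 55.6 against 0.692 and 0.561 CPM and Cspg4, which encodes the NG2 proteoglycan, at 56.8 and 67.9 against 0 and 2.48. In every gene of this paragraph both vascular libraries lay above both endothelial ones, as they did for 36 of the 39 members, where 21.4% of all genes did so. Notch3, the mural Notch receptor, kept 6.99% of its vascular level and the sphingosine-1-phosphate receptor S1pr3 kept 5.52%.

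Among surface enzymes and secreted proteins, Enpep and Anpep, the aminopeptidases A and N, stood at 39.6 and 42.7 against 0 and 1.64 CPM and 49.7 and 44.9 against 1.01 and 3.23 CPM. Ggt1, a gamma-glutamyltransferase, stood at 12.4 and 8.93 against 0 and 0.0468 CPM. The endothelial value is 1 read in all against 525 vascular reads, which gives 0.234% of the vascular level per read sequenced (95% exact binomial interval 0.00592 to 1.31%, counting error only). Vtn, which encodes the adhesive glycoprotein vitronectin, stood at 789.8 and 738 CPM in vascular and 17.8 and 41.8 in endothelial libraries (4.75 ± 0.48, adjusted p = 7.54e-05). Higd1b was at 46.9 and 32.8 against 0 and 0.935 CPM and the P-type ATPase gene Atp13a5 at 184 and 143 against 9.27 and 7.11. The mitochondrial genes Ndufa4l2 and Cox4i2 kept 8.02% and 10.7%. Art3 kept 2.05%, Plxdc1 4.59%, the metalloreductase Steap4 0.767%, the folate carrier Slc19a1 9.31%, endosialin (Cd248) 10.6%, Ifitm1 7.18% and the proline carrier Slc6a20a 12.1%.

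Among regulators inside the cell, Rgs5, a regulator of G protein signalling and a common pericyte marker, stood at 3387 and 2328 CPM in vascular and 554 and 653 in endothelial libraries (2.22 ± 0.40, adjusted p = 0.00531), so that endothelial cells kept 21.1%. Its relative Rgs4 kept 3.80%, at 163 and 161 against 7.72 and 4.58 CPM. The subunits of soluble guanylate cyclase, the nitric oxide receptor, kept 7.11% (Gucy1b3) and 18.97% (Gucy1a3). The transcription factor genes Heyl, Zic1 and Tbx18 kept 14.9%, 22.3% and 26.4%, and the laminin receptor Itga7 24.6%. The 6 members that did not pass were Mcam, Lamc3, Pde5a, Slc12a7, Slc6a12 and Ebf1, at 43.8%, 54.3%, 45.9%, 56.9%, 95.3% and 151% of the vascular level. Of these, the transcription factor gene Ebf1 stood at 179 and 265 CPM in vascular and 402 and 267 in endothelial libraries (-0.59 ± 0.26, adjusted p = 0.176), with both endothelial values above both vascular ones. Of the 33 called members, 24 stayed called under all 14 alternatives tried. Leaving out 1 library kept 27 (without vascular library 1) or 30 (without any of the other 3) of them. Without vascular library 1, Rgs5 had 1.95 (adjusted p = 0.0641), Ndufa4l2 3.19 (0.068), Tbx18 1.55 (0.105), Itga7 2.16 (0.14) and Gucy1a3 2.47 (0.129). Heyl missed the threshold without any 1 of the 4 libraries, with 2.38 to 2.84.

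**Figure D1:**
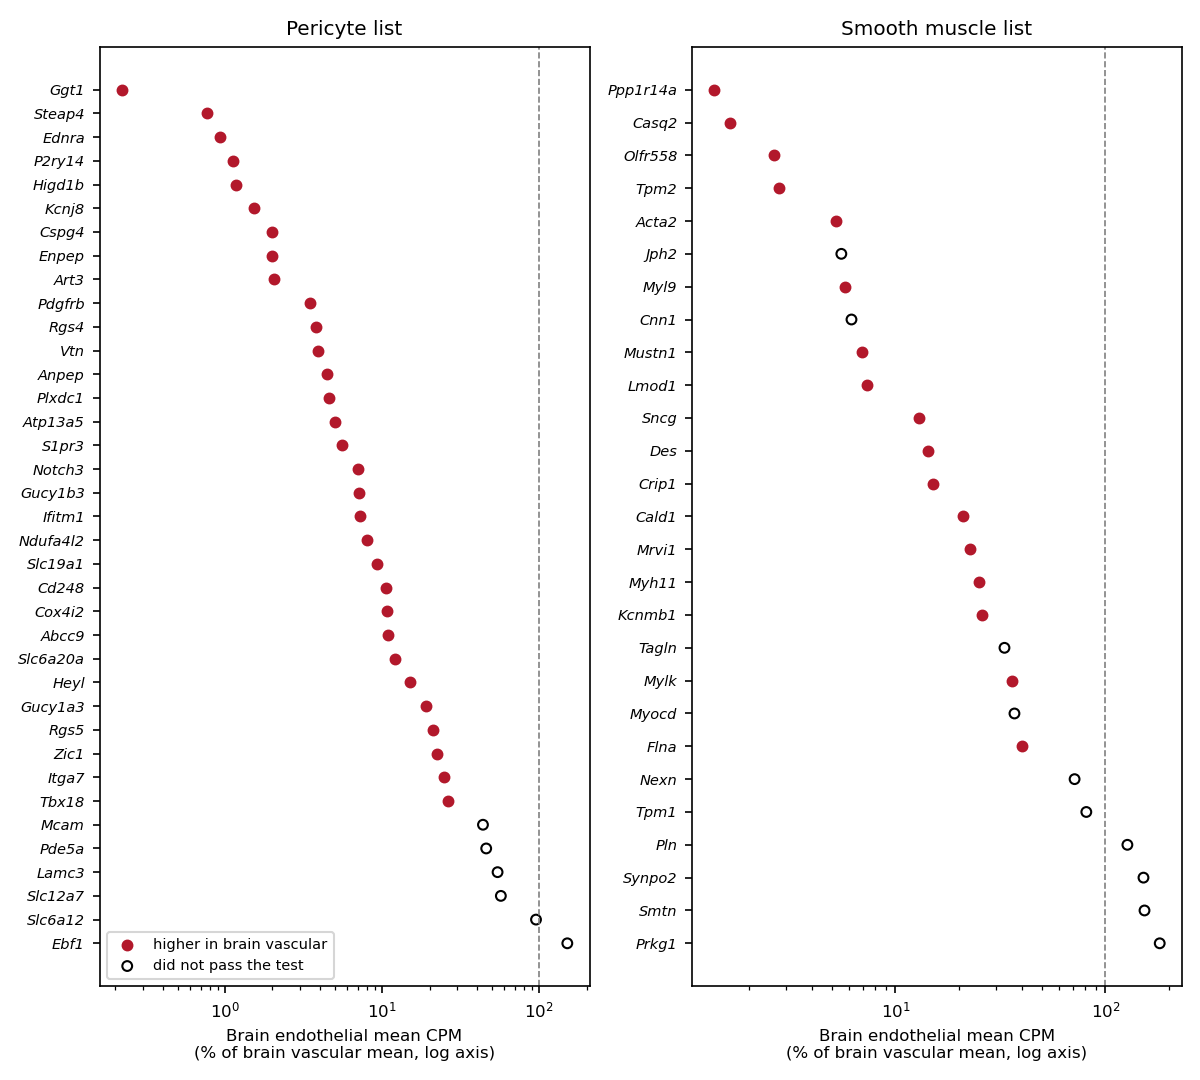
Brain endothelial mean level of the pericyte genes (left) and smooth muscle genes (right) named in the text, as a percentage of its brain vascular mean, on a log axis (n = 2 libraries each). Filled points passed the test as higher in brain vascular and the dashed line marks equal levels: the lowest pericyte point, Ggt1, rests on 1 endothelial read, 2 of the 33 called pericyte genes are not drawn, and Actg2, at 0 in all 4 libraries, is not drawn. The points of Ppp1r14a, Jph2 and Cnn1 also rest on few reads.

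Smooth muscle genes were higher in brain vascular libraries as well, in 17 of 28 tested members, with 0 lower and 11 not passing the test. The median log2 difference was 1.66, and 4.12% of all genes were called higher. Acta2, smooth muscle actin, stood at 113 and 204 CPM in vascular and 10.97 and 5.47 in endothelial libraries (4.12 ± 0.51, limma adjusted p = 0.000324). Myl9, the regulatory light chain of smooth muscle myosin, stood at 181 and 177 against 7.99 and 12.7 CPM (4.02 ± 0.52, adjusted p = 0.000489), and the heavy chain Myh11 at 52.7 and 65.4 against 25.8 and 3.79 (2.40 ± 0.69, adjusted p = 0.0494). The heavy chain varied most inside a group, since endothelial library 1 alone held several times the level of library 2. Tpm2, a tropomyosin, stood at 32.5 and 40.97 against 0.266 and 1.78 CPM, and Casq2, the calcium store protein calsequestrin 2, at 82.1 and 66.8 against 1.97 and 0.468 (5.17 ± 0.46, adjusted p = 3.73e-05). Des, desmin, kept 14.3% of its vascular level in endothelial cells, caldesmon (Cald1) 20.9% and the LIM protein gene Crip1 15.04%.

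Mylk, the kinase of the myosin light chain, stood at 118 and 111 CPM in vascular and 40.1 and 42.03 in endothelial libraries (1.46 ± 0.24, limma adjusted p = 0.00282). Flna, filamin A, stood at 162 and 248 against 81.4 and 82.8 CPM (1.28 ± 0.26, adjusted p = 0.0116). The potassium channel subunit Kcnmb1 kept 25.8%, Mrvi1 22.6%, Lmod1 7.33%, Sncg 12.9%, Mustn1 6.90%, Olfr558 2.65% and the phosphatase inhibitor Ppp1r14a 1.37%. The percentage of Ppp1r14a rests on very few endothelial reads and a low vascular level, its log2 difference being 1.39. Tagln (transgelin), at 19.1 and 30.2 against 9.32 and 6.97 CPM, did not overlap between groups but missed the threshold (1.47 ± 0.45, adjusted p = 0.0608). Smtn, Prkg1, Synpo2 and Pln had endothelial means above the vascular mean, at 153%, 181%, 152% and 127%, and none of them passed the test. The rest of those not called were Tpm1 (81.1%), Nexn (71.3%), Myocd (36.9%), Jph2 (5.52%), Cnn1 (6.17%) and Actg2, which was at 0 in all 4 libraries. The percentages of Jph2 and Cnn1 also rest on few reads, with log2 differences of 0.81 and 0.37. Myocd, whose product is a coactivator of the smooth muscle programme, was low throughout, at 0.822 and 5.42 against 0.852 and 1.45 CPM. Of the 17 called members, 10 stayed called under all 14 alternatives, and leaving out 1 library kept 11 (without vascular library 2) to 15 (without endothelial library 2). Myh11 had 1.15 (adjusted p = 0.222) and Kcnmb1 0.98 (0.0803) without endothelial library 2. Crip1 had 1.96 (adjusted p = 0.118), Lmod1 1.55 (0.145), Ppp1r14a 1.35 (0.06) and Flna 1.26 (0.0547) without endothelial library 1.

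Promoters of smooth muscle contractile genes are known to carry CArG boxes, where serum response factor binds with myocardin as its coactivator, and the same factor acts at immediate early genes. The 170 bases before the start of Myl9 and Acta2 are shown, from RefSeq on GRCm38.p6. Both genes encode contractile proteins, and they stood in endothelial cells at 5.77% and 5.19% of the vascular level. Capitals mark a CArG box or a variant with 1 inner base other than A or T. They lie at chr2:156775294-156775463 on the plus strand for Myl9 and at chr19:34255374-34255543 on the minus strand for Acta2.
Myl9: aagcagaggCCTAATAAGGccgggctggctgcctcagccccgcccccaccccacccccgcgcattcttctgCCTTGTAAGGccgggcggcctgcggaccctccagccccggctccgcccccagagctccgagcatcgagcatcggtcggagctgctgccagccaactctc
Acta2: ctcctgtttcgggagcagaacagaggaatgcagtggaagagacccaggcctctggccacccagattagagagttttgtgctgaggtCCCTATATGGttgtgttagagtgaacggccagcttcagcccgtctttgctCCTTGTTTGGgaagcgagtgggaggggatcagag
The first run of capitals in Myl9 is a full CArG box, at positions -161 to -152 from the start, and the others are variants. Over windows of 250 bases before to 50 after the start, searched on both strands, 1 of 23 smooth muscle genes with a sequence (4.35%) and 0 of 26 pericyte genes held a full box, against 1.81% of 27025 genes and 1.63% of 32851 promoters. With 1 inner base free the counts were 4 of 23 (17.4%) and 2 of 26 (7.69%) against 11.3% of genes and 9.98% of promoters. Myl9 and Acta2 are among the 4 smooth muscle genes with a match, so the sequences shown do not stand for the list. Among immediate early genes the counts were 2 of 19 (10.5%) for the full box and 7 of 19 (36.8%) with 1 base free. These matches describe letters in a window and were not tested against the levels.

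Set against the 13 control libraries of brain, most mural genes were lower in the endothelial sort, and few were called in the vascular sort. Summed pericyte levels were 6286 and 5247 CPM in vascular and 1173 and 1158 in endothelial libraries, and 1457, 7170.0 and 9882 (lowest, median and highest) in the 13 controls. Smooth muscle sums were 2161 and 2444, 828 and 884 and, in the controls, 973, 1603 and 2095. Both vascular smooth muscle sums thus lay above every control, and both endothelial ones below. Over 14454 genes tested against the controls, 2295 were higher (15.9%) and 1949 lower (13.5%) in endothelial cells, a split of 2004 and 2671 under TMM scaling and of 1417 and 3583 with mitochondrial rRNA left out. In vascular cells 417 were higher (2.89%) and 150 lower (1.04%), a split of 537 and 314 under TMM, 505 and 430 under quantile scaling and 526 and 323 with mitochondrial rRNA left out. Without vascular library 2 the split was 41 and 70, and without vascular library 1 it was 116 and 8. Against the controls, 36 of 39 pericyte genes were lower in endothelial cells (median -2.87) and 0 of 39 were called in either direction in vascular cells (median 0.21), where 3.92% of all genes were. Of 26 smooth muscle genes tested there, 18 were lower and 1 was higher in endothelial cells, and 2 (Crip1 and Sncg) were higher in vascular cells, where 1 and 0 were called without vascular library 1 and 2. Pdgfrb, for one, ranged from 30.4 to 326 CPM over the controls, around the vascular values. Both contrasts use the same controls, and the first shares the endothelial libraries with the comparison above.

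Of the controls, 2 libraries of the acute TBI control group stood near the endothelial sort in summed pericyte level. Their pericyte sums were 1457 and 1883 CPM, and those of the other 11 controls ran from 4583 to 9882. The mean pericyte log2(CPM + 1) was 4.92 to 6.08 in the other 11. In the 2 libraries it was 3.44 and 3.67, above the 2.39 and 2.52 of the endothelial libraries. Those 2 controls were the lowest of the 13 in 35 of 39 pericyte genes and in 12 of 28 smooth muscle genes. Both endothelial libraries lay below all 13 controls in 26 pericyte genes, where 8.63% of tested genes did so, and below the other 11 in 34. Summed endothelial genes in those 2 libraries, 16022 and 17218 CPM, lay within the range of the others. Without both, which was chosen after seeing the data, 36 of 39 pericyte genes were still lower in endothelial cells (median -3.23) and 1 was called higher in vascular cells, whose median became -0.15.

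**Figure D2:**
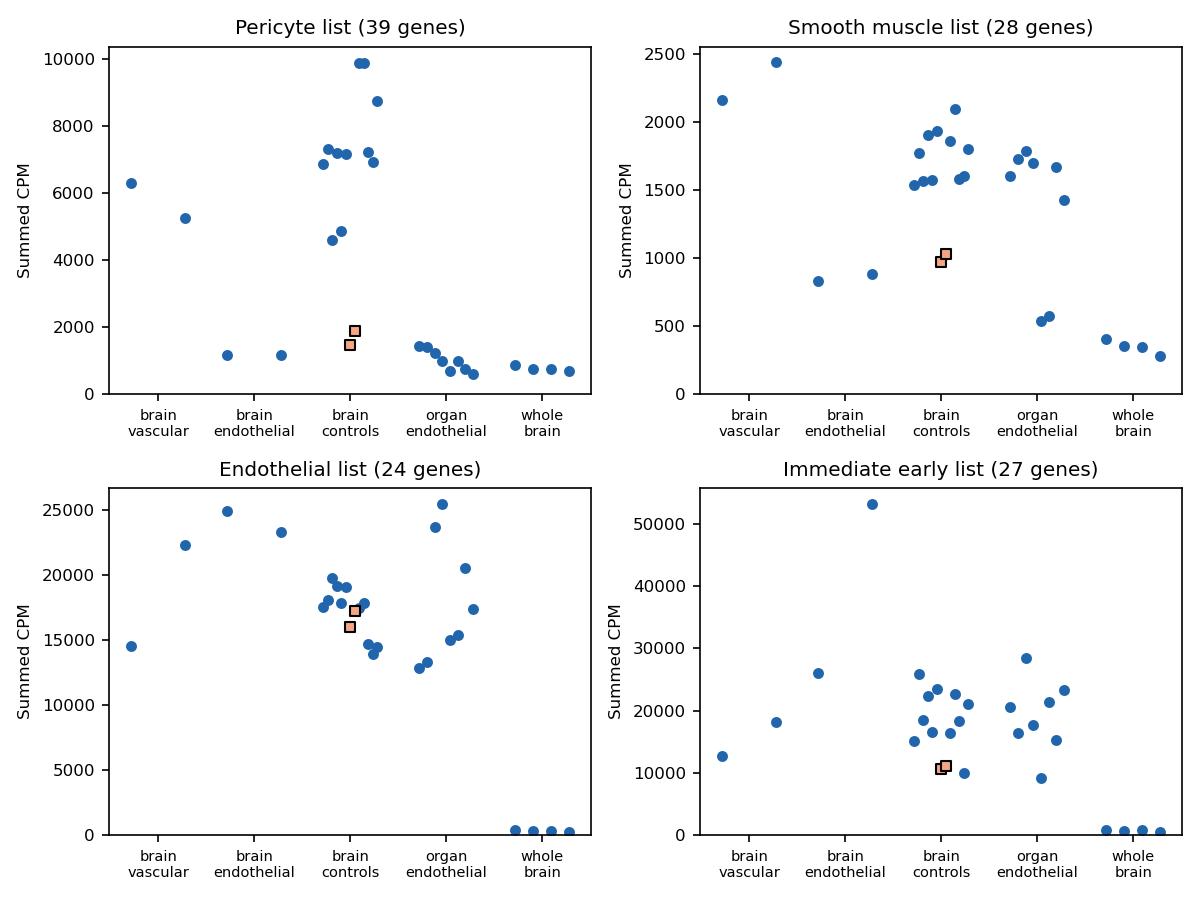
Summed CPM of 4 gene lists in every library of brain vascular (n = 2), brain endothelial (n = 2), brain control (n = 13), organ endothelial (n = 8) and whole brain (n = 4) groups, each point a library and each axis from 0. Squares mark acute TBI control libraries 1 and 2, whose pericyte sums of 1457 and 1883 CPM lie next to the brain endothelial values of 1173 and 1158.

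Endothelial sorts of other organs give a second reference for what mural signal remained. Pericyte sums ran from 611 to 1446 CPM over the 8 libraries of heart, kidney, lung and liver endothelium, a range that holds both brain endothelial values. Most of both brain endothelial sums came from Rgs5 and Ebf1, and Ebf1 was not lower in endothelial than in vascular libraries. The mean pericyte log2(CPM + 1) was 2.39 and 2.52 in brain endothelial libraries and 2.15 to 3.13 in the organ libraries. The mean brain endothelial level of 17 of 39 pericyte genes and 18 of 28 smooth muscle genes fell within the range of those organ libraries. In whole brain the pericyte sums were 674 to 862 CPM, below the brain endothelial sums, but the mean pericyte log2(CPM + 1) was higher, at 2.60 to 3.08. Brain endothelial libraries still held Pdgfrb at 6.12 and 6.83 CPM, where whole brain tissue had 12.3 ± 2.98 (SD, n = 4) and the organ libraries 4.73 to 43.7. Rgs5, at 554 and 653 CPM, lay above the organ range of 12.4 to 457.

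Of 23 listed ligands and receptors that link endothelium and mural cells, 5 were higher in vascular libraries (the receptors Ednra, Pdgfrb, S1pr3 and Notch3, and the ligand Angpt1), 2 were lower (Tgfb1 and Tgfb2) and 16 did not pass, against 4.12% and 3.64% of all genes. Those receptors are also members of the pericyte list and were counted there, so of the rises only Angpt1 is added here. Angpt1, the angiopoietin made by mural cells, stood at 6.49 and 9.57 CPM in vascular and 0.586 and 0.234 in endothelial libraries (2.67 ± 0.30, limma adjusted p = 0.000152). Its receptor Tek, on endothelium, stood at 509.6 and 795 against 682 and 564 CPM (0.04 ± 0.22, adjusted p = 1). Pdgfb, the endothelial ligand of Pdgfrb, stood at 106 and 168 against 135 and 190.4 CPM (-0.26 ± 0.35, adjusted p = 0.763), a range in which the groups overlap. Edn1, the ligand of Ednra, was at 227 and 335 against 138 and 200.4 CPM and did not pass (0.73 ± 0.47, adjusted p = 0.387), although its values did not overlap. The Notch ligands Jag1 (-0.29) and Dll4 (-0.26) did not pass either. Tgfb1 stood at 26.9 and 32.4 against 56.8 and 94.3 CPM (-1.28 ± 0.33, adjusted p = 0.0326) and Tgfb2 at 77.2 and 112 against 242 and 205 (-1.25 ± 0.34, adjusted p = 0.0403). Both are ligands that act on either cell type. They missed the threshold without vascular library 1 (adjusted p = 0.185 and 0.252) and without vascular library 2 (0.0689 and 0.0548), Tgfb1 without endothelial library 2 (0.102) and Tgfb2 without endothelial library 1 (0.164). The remaining 11 members (Acvrl1, Angpt2, Cxcl12, Eng, Hbegf, Notch1, Pdgfd, S1pr1, Tgfbr1, Tgfbr2 and Vegfa) had log2 differences of -0.996 to 0.29.

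Fibroblast genes moved in both directions. Of 19 tested, 3 were higher, 3 lower and 13 did not pass, where 4.12% of all genes were called higher and 3.64% lower. Mgp, matrix Gla protein, which smooth muscle and arterial endothelium also make, stood at 192 and 268 CPM in vascular and 14.1 and 16.6 in endothelial libraries (3.80 ± 0.43, limma adjusted p = 0.00016). Ogn (33.7 and 24.7 against 7.08 and 1.08 CPM) and Fbln1 (4.03 and 3.79 against 0.160 and 0.421 CPM) were higher too, while Ogn had an adjusted p of 0.0727 without vascular library 1. Col1a1, the fibroblast collagen chain, went the other way, at 2.84 and 2.79 CPM in vascular and 11.8 and 14.6 in endothelial libraries (-1.89 ± 0.41, adjusted p = 0.0141). Apod (118 and 124 against 268 and 393 CPM) and Cyp1b1 (2.51 and 2.23 against 5.80 and 10.5) were lower with it. All 3 missed the threshold without vascular library 1 (adjusted p = 0.0848, 0.102 and 0.0752) and without vascular library 2 (0.0554, 0.0552 and 0.0637). Pdgfra stood at 5.22 and 4.70 against 9.53 and 14.8 CPM and did not pass (-1.12 ± 0.43, adjusted p = 0.128). Of 16 basement membrane genes, Lama2, a laminin chain of mural cells and fibroblasts, was higher at 33.5 and 51.2 against 3.94 and 5.80 CPM. Nid2 (19.5 and 27.98 against 95.6 and 108) and Hspg2 (132 and 298 against 707 and 529) were lower, and the other 13 did not pass. Each of these 3 calls was lost without vascular library 1, where the log2 differences were 3.17, -1.82 and -1.03. Those of Lama2 and Hspg2 leaned on other libraries too, with 2.64 and -1.41 without endothelial library 1.

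Arterial endothelial genes were higher in vascular libraries in 10 of 16 members and lower in 0, against 4.12% and 3.64% of all genes. Their median log2 difference was 1.42. Gja4 and Gja5, the connexins 37 and 40 of arteries, stood at 86.6 and 119 against 5.91 and 9.49 CPM (3.59 ± 0.36, limma adjusted p = 7.54e-05) and at 16.7 and 34.3 against 0 and 2.85 CPM (3.67 ± 0.53, adjusted p = 0.0012). Gkn3, which marks brain arterial endothelium in mouse, stood at 45.3 and 126 against 9.69 and 11.7 CPM. Egfl8, Cytl1, Stmn2, Fbln5, Bmx, Tm4sf1 and Vegfc were the other 7, at 17.4%, 9.50%, 18.4%, 20.1%, 37.2%, 40.4% and 37.6% of the vascular level. The arterial genes of Notch and ephrin signalling did not follow: Dll4 stood at 118% and Efnb2 at 124%, and neither passed. Only Gja4, Gja5 and Stmn2 stayed called under all 14 alternatives. Without vascular library 2 the calls of Gkn3, Egfl8, Cytl1, Fbln5, Bmx, Tm4sf1 and Vegfc were lost, with log2 differences of 0.87 (Vegfc) to 2.50 (Egfl8). Mural markers move with this list, the pericyte sums being those given above, and their part in it was not tested. Of 13 venous genes, 1 passed: Flt4, lower at 121 and 168 against 310.2 and 274 CPM, with an adjusted p of 0.163 without vascular library 1.

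Few genes of endothelial identity were called between the sorts, where 4.12% of all genes were called higher and 3.64% lower. Of 24 endothelial genes, 0 were higher, 2 lower and 22 did not pass, and the median log2 difference of -0.26 was 0.02 under quantile scaling, where 2 were higher and 0 lower, 0.08 without vascular library 1 and -0.64 without vascular library 2, where 4 were lower. Without endothelial library 2, 2 were higher and 3 lower. Against the 13 controls, 11 of the 24 were higher and 0 lower in endothelial cells (median 0.48), but 6 and 3 under quantile scaling and with mitochondrial rRNA left out, and 5 and 0 without endothelial library 1. Of all genes tested against the controls, 15.9% were called higher and 13.5% lower in endothelial cells. Pecam1 stood at 629 and 1003 CPM in vascular and 1263 and 1221 in endothelial libraries (-0.64 ± 0.25, limma adjusted p = 0.128) and Cdh5, VE-cadherin itself, at 684 and 1209.6 against 1124 and 1318 (-0.42 ± 0.27, adjusted p = 0.382). Kdr, the VEGF receptor, stood at 459 and 848 against 877 and 791 CPM and Cldn5, the main claudin of the barrier, at 726 and 1176 against 229.6 and 718, and neither passed (adjusted p = 0.408 and 0.234). Erg, an endothelial transcription factor gene, was lower at 159.8 and 163 against 687 and 462 CPM (-1.80 ± 0.32, adjusted p = 0.00484, and 0.0508 under quantile scaling). Ptprb, the phosphatase of the Tie receptors, was lower at 1607 and 2395 against 4586 and 3131 CPM (-0.95 ± 0.27, adjusted p = 0.0478), with 0.285 without vascular library 1. Vascular library 2 lay above library 1 in 24 of the 24 genes, and library 1 was the one with 40.7% mitochondrial rRNA. None of 23 barrier transporters and none of 11 tight junction genes passed, Slc2a1, the glucose carrier GLUT1, having -0.07 (adjusted p = 1). At an unadjusted p under 0.05 the counts were 7 and 1, and edgeR called 0 of both.

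Wnt signalling maintains the blood-brain barrier. Of 18 genes of the pathway, 2 were lower in vascular libraries (the co-receptors Lrp5 and Lrp6, at -0.97 and -1.20) and 16 did not pass, with a median of -0.60 and 3.64% of all genes called lower. Lef1, a transcription factor of the pathway, stood at 289 and 449 CPM in vascular and 871 and 701 in endothelial libraries (-1.11 ± 0.36, limma adjusted p = 0.0715), with no overlap. Without vascular library 1 the adjusted p was 0.155 for Lrp5 and 0.293 for Lrp6, and 0 of the list were called under quantile scaling and without vascular library 1 or endothelial library 1. Against the 13 controls, where 15.9% of genes were called higher, 16 of 18 were higher in endothelial cells (median 0.81), 12 under quantile scaling and 10 without endothelial library 1. In vascular cells 0 were called, but 1 to 3 were higher under quantile scaling, TMM, edgeR, with mitochondrial rRNA left out, with the compared groups alone and without vascular library 1.

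**Figure D3:**
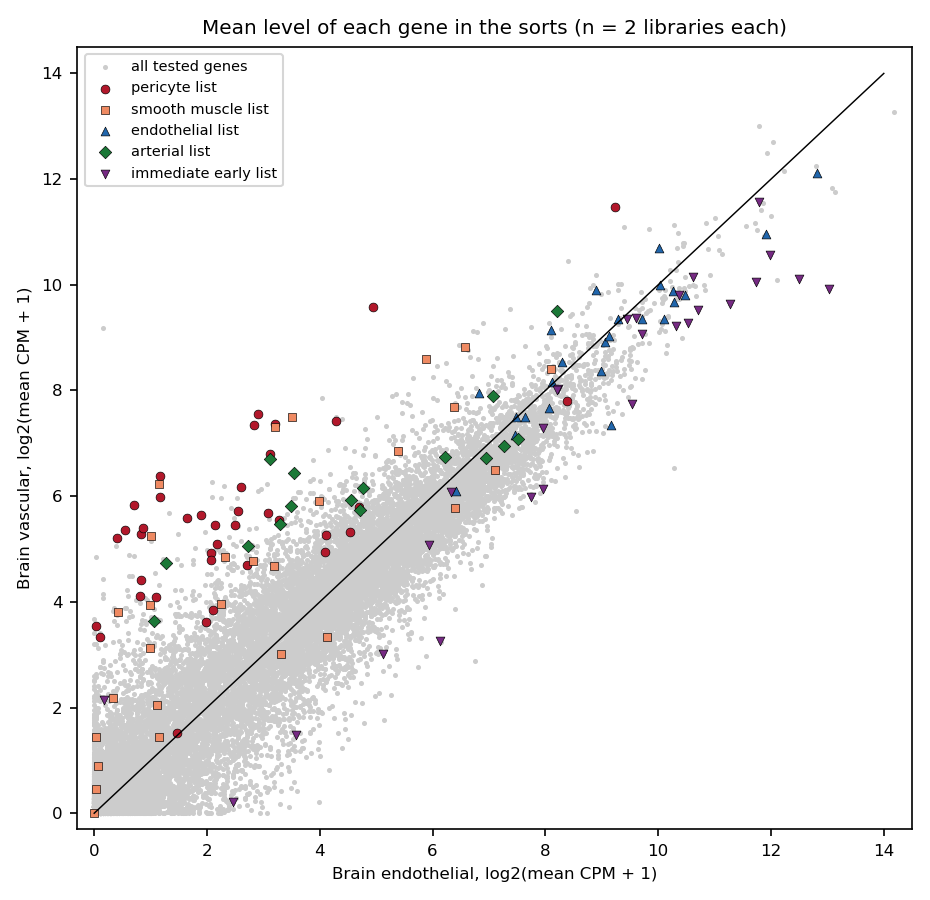
Mean level of each of 18141 tested genes in brain endothelial (x axis) and brain vascular (y axis) libraries as log2(mean CPM + 1), n = 2 libraries each, with the line of equal levels. The 50 called pericyte and smooth muscle genes lie above the line, and the 5 called immediate early genes below it.

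Immediate early genes, which cells switch on within minutes of a stimulus such as dissociation, are used here as genes linked to the preparation. Of 27, 0 were higher in vascular libraries, 5 were lower (Egr3, Egr1, Jun, Fosb and Jund) and 22 did not pass, against 3.64% of all genes called lower, and the median log2 difference was -0.98. Fosb stood at 776 and 1169 CPM in vascular and 5040.4 and 11730.4 in endothelial libraries (-3.01 ± 0.71, limma adjusted p = 0.0217). Egr1 stood at 979 and 1241 against 4364 and 7244 CPM (-2.35 ± 0.48, adjusted p = 0.0105) and Egr3 at 7.81 and 9.29 against 43.6 and 94.9 (-2.78 ± 0.48, adjusted p = 0.00411). Jun was at 778 and 1338 against 3052 and 3766 CPM (-1.73 ± 0.38, adjusted p = 0.0154) and Jund at 50.2 and 88.8 against 140.2 and 354 (-1.72 ± 0.41, adjusted p = 0.0244). All these genes encode transcription factors, of the AP-1 or EGR families, and no values overlapped between the groups, as in 11 of the 27 genes with both vascular libraries below, where 19.3% of all genes did so. Fos, also of the AP-1 family, stood at 588 and 1006 against 1568 and 3355 CPM without overlap and did not pass (-1.58 ± 0.58, adjusted p = 0.112), and Junb (-1.57), Zfp36 (-1.38), Arc (-2.09) and Nr4a2 (-1.78) did not pass either. Dusp1, Btg2 and Ppp1r15a, also immediate early genes, differed by -0.13, -0.03 and -0.00, with values that overlap. Myc stood at 2.96 and 3.91 CPM in vascular and 0.106 and 0.140 in endothelial libraries (1.97 ± 0.72, adjusted p = 0.109). It was called higher under 4 of the 14 alternatives. These were edgeR, mitochondrial rRNA left out, a pseudocount of 0.1 and the compared groups alone.

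The immediate early genes also varied inside each group. Their summed level was 12676 and 18228 CPM in vascular, 26064 and 53163 in endothelial and 9939.6, 18398 and 25842 (lowest, median and highest) in the 13 control libraries. Endothelial library 2 lay above library 1 in 26 of 27 genes and vascular library 2 above library 1 in 27 of 27. Without vascular library 1, 1 of the 5 calls (Egr3) remained, with Fosb at -2.72 (adjusted p = 0.152), Egr1 at -2.18 (0.088), Jun at -1.34 (0.149) and Jund at -1.32 (0.2). Without endothelial library 2, 3 of the 5 remained and the median of the list was -0.12. Against the controls, 13 were higher and 1 (Myc) was lower in endothelial cells (median 0.91), where 15.9% and 13.5% of all genes were. Without endothelial library 2 the counts were 6 and 4 and the median 0.10. In vascular cells 0 were called (median -0.11). For Fosb the controls ran from 221 to 3633 CPM, and both endothelial libraries stood above them, as they did in 11 of 27 genes, where 9.98% of tested genes did so.

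**Figure D4:**
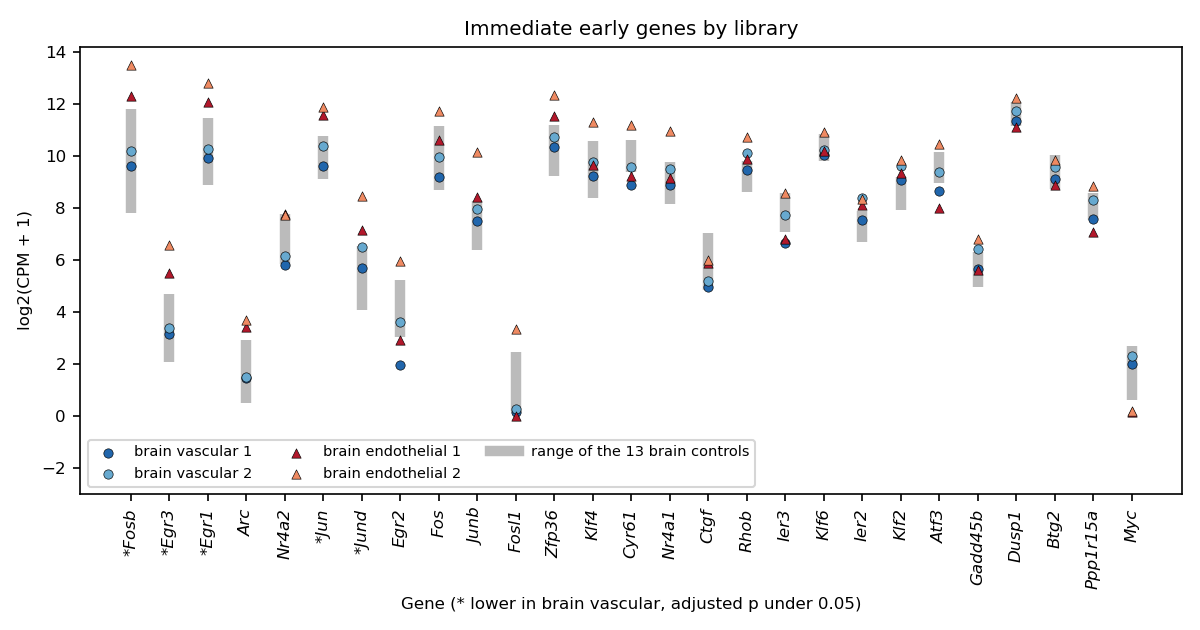
Levels of 27 immediate early genes as log2(CPM + 1) in the 2 brain vascular (circles) and 2 brain endothelial (triangles) libraries, with grey bars from the lowest to the highest of 13 brain control libraries. Asterisks mark the 5 genes lower in brain vascular, and both triangles lie above the grey bar in 11 genes.

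Other programmes linked to stress or handling gave few calls, where 4.12% of all genes were called higher and 3.64% lower. Of 13 glucocorticoid targets, 3 were lower in vascular libraries. They were Klf9 (56.02 and 87.8 against 252 and 205 CPM, -1.68 ± 0.27, limma adjusted p = 0.00262), Zbtb16 (2.75 and 6.14 against 23.3 and 16.04) and the kinase gene Sgk1 (396 and 439.9 against 693 and 1558). Klf9 stayed called under all 14 alternatives, while Zbtb16 and Sgk1 had adjusted p of 0.088 and 0.204 without vascular library 1. Of 19 interferon response genes, Irf7 (19.9 and 43.6 against 115 and 67.6 CPM) and Ifi44 (10.7 and 15.8 against 51.7 and 31.7) were lower and 17 did not pass, with adjusted p of 0.219 and 0.155 for these without vascular library 1. Of 15 heat shock genes, 1 was higher: Cryab, a small heat shock protein gene also known from smooth muscle and glia, at 15.1 and 18.4 CPM against 0 and 0.234 (3.99 ± 0.42, adjusted p = 0.000105). None of 17 NF-kB and cytokine genes and none of 13 genes of the unfolded protein response passed in limma, with 3 and 1 at an unadjusted p under 0.05 and 1 and 0 called by edgeR. Of 14 hypoxia and glycolysis genes, 1 was higher, the oxygen sensor Egln3, at 1.48 and 2.23 CPM against 0 in both endothelial libraries, and without vascular library 2 its adjusted p was 0.0852.

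Of 54 nuclear genes of oxidative phosphorylation, 4 were higher (Ndufs8, Cox5a, Atp5c1 and Cox7b), 0 lower and 50 did not pass, with a median log2 difference of 1.02 and 4.12% of all genes called higher. Both vascular libraries lay above both endothelial ones in 45 of the 54 and below in 2, where 21.4% and 19.3% of all genes did so. Atp5c1, a subunit of ATP synthase, stood at 187 and 176 CPM in vascular and 26.9 and 70.9 in endothelial libraries (2.03 ± 0.43, limma adjusted p = 0.0129). The summed level was 4072 and 4537 CPM in vascular and 1806 and 2652 in endothelial libraries, and 2600.4, 2922 and 3487 (lowest, median and highest) in the controls. Against the controls, 20 of 54 were higher in vascular cells (2.89% of all genes), but 6 without vascular library 1 and 6 without vascular library 2. In endothelial cells 22 were lower (13.5% of all genes) and 1 higher, but 5 lower without endothelial library 1. Of 75 ribosomal protein genes, 6 were higher and 2 lower (median 0.72), against 4.12% and 3.64% of all genes. Of these 75 genes, 42 had both vascular libraries above both endothelial ones and 10 had them below. Their sums were 5504 and 5651 against 1944 and 3645 CPM. Rpl32 stood at 508 and 419 against 25.8 and 149 CPM (2.86 ± 0.74, adjusted p = 0.0334) and Rpl10 at 13.03 and 8.13 against 42.9 and 43.2 (-1.96 ± 0.32, adjusted p = 0.00279). Ribosomal protein genes share reads with many near-identical copies, so each single value is uncertain. Leaving out vascular library 1 or endothelial library 1 left 0 genes of either list called higher, leaving out vascular library 2 left 1 and 0, and leaving out endothelial library 2 gave 17 and 26. With 1 library left out the ribosomal median ran from 0.32 to 1.23 and the oxidative phosphorylation median from 0.78 to 1.29. Both were lowest without endothelial library 1 and highest without endothelial library 2. Counts moved with scaling, with 19 of 54 and 21 of 75 higher when mitochondrial rRNA was left out. Mitochondrial mRNA, at 15705 and 9703 against 10006 and 4492 CPM summed, gave 1 call of 7 (mt-Nd1, higher at 1.71, with an adjusted p of 0.239 without vascular library 1). Neat1, a nuclear long RNA, was lower at 116 and 109 against 555 and 298 CPM, but missed the threshold without vascular library 1, vascular library 2 or endothelial library 1 (adjusted p = 0.107, 0.0781 and 0.15). Malat1, at 3102 and 3810.1 against 12042 and 5852, did not pass (-1.29 ± 0.38, adjusted p = 0.0545). Of 5 nuclear long RNAs tested, 1 was higher (Meg3), 1 lower (Neat1) and 3 did not pass, against 4.12% and 3.64% of all genes. Meg3 had log2 differences of 1.74, 1.26 and 1.34 without vascular library 1, vascular library 2 and endothelial library 1.

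Summed astrocyte genes stood at 68.03 and 99.3 CPM in vascular and 143 and 98.5 in endothelial libraries against 3387 to 4505 in whole brain, and neuron genes at 4.19 and 8.73 and 13.2 and 7.34 against 6099 to 7368. Of 11 astrocyte genes 1 was lower, the connexin gene Gjb6, at 0.986 and 0.917 against 5.70 and 2.85 CPM (limma adjusted p = 0.0143), and 0 of 12 neuron genes passed, with 1 at an unadjusted p under 0.05 and 1 called by edgeR. Aqp4, the astrocyte water channel, was at 0 in both vascular libraries and at 0 and 0.421 CPM in endothelial ones, and the myelin gene Mbp at 0.986 and 0.478 and 0 and 0.327. The oligodendrocyte sum, 293 and 346 against 171 and 188 CPM, included Mal (277 and 334 against 166 and 173 CPM, higher, adjusted p = 0.0416), whose lipid raft protein other cells also make. Of 20 microglia and macrophage genes, 1 was lower (Cd68, 2.47 and 4.34 against 13.8 and 11.7 CPM), with sums of 36.01 and 51.7 against 27.8 and 36.6. Cd68 went against most of its list, whose median log2 difference was 0.50. Both vascular libraries lay above both endothelial ones in 12 of the 20 and below in 2, where 21.4% and 19.3% of all genes did so. At an unadjusted p under 0.05 in limma the count was 4, and edgeR called 5. Among all genes tested, 4.12% were called higher and 3.64% lower. None of the lymphocyte, neutrophil and red blood cell genes passed, in 5, 7 and 7 tested, with 1, 2 and 1 at an unadjusted p under 0.05 and 0, 1 and 0 called by edgeR. Haemoglobin was uneven, Hbb-b1 standing at 693 and 969 against 150.3 and 1194 CPM. Leaving out vascular library 1, vascular library 2 or endothelial library 1 ended the calls of Mal (adjusted p = 0.1, 0.158 and 0.143), Gjb6 (0.0796, 0.0581 and 0.0958) and Cd68 (0.264, 0.0691 and 0.168). Choroid plexus gave 2 calls of 8, Ttr and Prlr, and Prlr missed the threshold without vascular library 2 or endothelial library 1 (adjusted p = 0.205 and 0.111). Summed choroid plexus genes stood at 214 and 1224 CPM in vascular and 133 and 91.7 in endothelial libraries against 604 to 2051 in whole brain, so that vascular library 2 lay within the whole brain range. Ttr, transthyretin, stood at 145 and 1008 CPM in vascular and 0 and 0.234 in endothelial libraries (8.43 ± 0.87, adjusted p = 8.74e-05), and from 0.0344 to 325 CPM over the 13 controls. It had the largest log2 difference among the rises named below, and vascular library 2 held several times the level of library 1.

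The 10 largest rises among called genes whose mean level was above the median of tested genes were Ttr, Kcnj8, Casq2, P2ry14, Cspg4, Higd1b, Ednra, Ctnnd2, Vtn and Enpep, of which 8 belong to the pericyte or smooth muscle lists. Ctnnd2, delta-catenin, stood at 23.4 and 32.5 CPM in vascular and 0 and 0.0468 in endothelial libraries (4.80 ± 0.47, limma adjusted p = 7.1e-05), and its mean in whole brain was 219 ± 19.8 CPM (SD, n = 4). The 10 largest falls were Sytl1, Pabpc1l, Fosb, Zfp503, Ccdc64b, Fam71a, Mex3a, Slc16a11, Egr3 and Nup210l. Sytl1, a synaptotagmin-like protein gene, stood at 2.55 and 2.23 against 47.8 and 20.99 CPM (-3.27 ± 0.46, adjusted p = 0.000979). Zfp503, a zinc finger gene, stood at 4.85 and 8.89 against 60.8 and 54.7 CPM (-2.95 ± 0.35, adjusted p = 0.000225). Pabpc1l, at 0 and 0.319 against 27.2 and 2.38 CPM, had endothelial library 1 far above library 2. The others ranged from -2.93 (Ccdc64b) to -2.77 (Nup210l).

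The authors' deposited table carries a mural mark on 537 genes, and the rule behind it was not given in the sources used here. Of the marked genes 394 (73.37%) were among the 748 called higher, 0 were lower and 143 did not pass, and 52.67% of the 748 were marked. Marked genes had vascular to endothelial ratios of 2.84 or more and vascular means of 4.96 CPM or more, limits that 713 genes met. Whether the mark was drawn from these same libraries is not stated, and it is not treated as independent evidence. It took in 29 pericyte and 9 smooth muscle genes, and also Ttr, the arterial connexins Gja4 and Gja5 and the respiratory chain gene Cox5a. It left out Vtn, Rgs5, Abcc9, Myl9 and Myh11, which were called higher here.

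Sex-linked genes were used to check the labels. The Y-linked Ddx3y, Uty, Kdm5d and Eif2s3y were present in all 4 libraries, for example Ddx3y at 131 and 158 CPM in vascular and 130.4 and 42.97 in endothelial libraries. Xist, the X-inactivation RNA of females, was at 0 in both vascular libraries and at 0 and 0.0468 CPM in the endothelial ones, which carry the label male. None of the 4 Y-linked genes passed the test between the groups, with 1 of 4 (Ddx3y) at an unadjusted p under 0.05 and 0 called by edgeR.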

How the data were processed

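RNA-seq libraries of sorted brain vessel cells were compared, 2 brain vascular against 2 brain endothelial, from a table of 68 libraries in which the authors deposited counts per 1000000 reads (CPM) for each gene. Per the submitters' processing notes, mm9 was the build and the tools were Subread, featureCounts and TopHat2 (2.0.13), their order not stated. The table's other column used here, the mural mark, is the authors' deposited text mark, with no rule given per the file headers. Every library summed to 1000000 CPM. All 1374704 values above 0 were whole multiples of 1 read, to within 0.001, which gave the depths and let edgeR (4.0.16) test recovered reads as an alternative, calling 1050 genes higher and 644 lower.

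Of 37991 lines, 3401 repeat a symbol, and 25 symbols turned into dates were repaired. Genes with CPM over 1 in at least 2 libraries were tested with limma (3.58.1, R 4.3.3) on log2(CPM + 1), with a variance trend and p-values adjusted by Benjamini-Hochberg over all genes tested, called at 0.05. The fit of vascular against endothelial shared its spread over 16 healthy libraries of 7 groups, and the control contrasts were fitted with 13 controls of 5 groups. The code was tested on simulated data. Depth ran from 18.8 to 38.8 M reads over the series. Intervals for counting error are given for Ggt1 alone. Percentages of other genes of low level, such as Ppp1r14a, Jph2 and Cnn1, rest on few reads as well and have no interval.

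Genes named are every member of the pericyte, smooth muscle, endothelial to mural signalling and sex-linked lists; up to 5 called members of other lists, or where fewer than 2 were called also the 2 of highest level; the 10 largest rises and falls among called genes of above-median level without overlap; and 10 check genes. Values of 2 pericyte list members are not reported here, though counts and sums include them. Genes named beyond this rule were chosen after their values were seen. Members and lists were chosen with earlier results of these data known. Alternatives were other scalings, pseudocount, filters, no trend, fewer groups in the fit, the replicate number as a block and leaving out each library. Promoters are from RefSeq on GRCm38.p6, which differs from the authors' build, and no coordinates were converted.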

Additional observations from a re-analysis of the deposited data

How the results depend on the processing

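Of the 67 mural genes 50 were called higher, and 39 to 53 over the alternatives, with 39 to 47 when 1 library was left out. Without endothelial library 2, 2 mural genes that had not passed, Ebf1 (-0.88) and Prkg1 (-1.46), were called lower, and others that had not passed changed sign, as given below. The whole-table counts moved far more. Genes higher in vascular libraries numbered 748, and 1363 under TMM scaling, 1668 with mitochondrial rRNA left out and 1050 in edgeR, with 304 to 1658 when 1 library was left out. Genes lower numbered 661, and 419 without a filter on low values, 243 when only the compared groups were fitted and 644 in edgeR, with 80 to 1777 when 1 library was left out. Genes apart from the controls numbered 4244 in endothelial cells, with 2430 to 6128 when 1 library was left out (2430 without endothelial library 1), and 3367 without acute TBI control libraries 1 and 2. In vascular cells they numbered 567, and 851 under TMM, 898 in edgeR, 935 under quantile scaling, 1510 when only the compared groups were fitted and 321 without those 2 controls, with 111 to 690 when 1 library was left out. The lowest values came without vascular library 2 (111) and library 1 (124), and chronic TBI control 2, subacute TBI control 1 and acute TBI control 2 gave 358, 371 and 375. The alternative without both acute TBI controls and edgeR for the control contrasts were chosen after seeing the data.

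Libraries with the same replicate number share only a number: the correlation of their deviations from the group means was 0.037 over 12869 genes. With the replicate number as a block, 541 genes were higher and 344 lower in vascular libraries, 44 mural genes were higher, and 3853 and 374 genes were apart from the controls in endothelial and vascular cells. The labels do not tie the numbers to shared animals or days.

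Every direction that reversed belonged to a gene that had not passed the test, and the cause was not tested. Under TMM scaling, log2 differences were 0.0913 for Btg2, 0.078 for Pdgfd, 0.0795 for Pln, 0.12 for Ppp1r15a and 0.0596 for Slc2a1. In edgeR, log2 differences were 0.0033 for Btg2, 0.0115 for Pdgfd and 0.0101 for Slc2a1. With mitochondrial rRNA left out, log2 differences were 0.23 for Btg2, 0.13 for Dusp1, 0.0926 for Kdm5d, 0.21 for Pdgfd, 0.20 for Pln, 0.26 for Ppp1r15a and 0.20 for Slc2a1. With a pseudocount of 0.1, log2 differences were 0.0114 for Pln. Under quantile scaling, log2 differences were 0.21 for Btg2, 0.30 for Dusp1, 0.0216 for Pdgfb, 0.11 for Pdgfd, 0.34 for Ppp1r15a, 0.69 for Slc2a1 and -0.0276 for Slc6a12. Leaving out 1 library at a time gave -0.35 to 0.37 for Acvrl1, -0.51 to 0.45 for Btg2, -0.033 to 0.78 for Cnn1, -0.86 to 0.34 for Dll4, -0.68 to 0.42 for Dusp1, -0.89 to 0.11 for Efnb2 and -0.28 to 0.98 for Eif2s3y. It gave -0.54 to 2.44 for Hbb-b1, -1.36 to 0.66 for Hbegf, -0.63 to 0.31 for Kdm5d, -0.86 to 0.0264 for Kdr, -0.23 to 1.59 for Myocd, -0.59 to 0.0647 for Pdgfb and -0.57 to 0.48 for Pdgfd. It gave -1.06 to 1.00 for Pln, -0.89 to 0.89 for Ppp1r15a, -1.46 to 0.47 for Prkg1, -0.24 to 0.82 for S1pr1, -0.022 to 1.32 for Slc12a7, -0.45 to 0.32 for Slc2a1 and -0.33 to 0.51 for Slc6a12. It gave -1.16 to 0.20 for Smtn, -1.06 to 0.057 for Synpo2, -0.28 to 0.36 for Tek, -0.12 to 0.14 for Tgfbr1, -0.64 to 0.72 for Uty and -1.25 to 0.23 for Vegfa.

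With 2 libraries a group, each call leans on the spread estimated over all 16 healthy libraries. A gene that missed the threshold is not shown to be equal. In the shallowest library 1 CPM is 18.8 reads, so depth limits mainly the genes of lowest level.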
